A study of Drosophila melanogaster with 3 samples.

Results

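The 33 aminoacyl-tRNA synthetase genes of Drosophila melanogaster were read for binding of Chrac-16, a small histone-fold subunit of the nucleosome remodeller CHRAC, which is built on the ATPase Iswi and its partner Acf. The genes were taken by name from the Ensembl annotation of the dm6 build, as the protein-coding genes whose symbol is the 3-letter code of an amino acid, or a pair of such codes joined, followed by RS. They are 33 of 13945 protein-coding genes on the chromosome arms used. Of these, 18 have no suffix and are called cytosolic here, and 15 carry the suffix -m and are called mitochondrial. The data were 3 biological replicates of ChIP-seq with an anti-GFP antibody from whole embryos of mixed sex, 0 to 24 h old. The embryos came from 1 transgenic line in which eGFP is fused to the C-terminal end of Chrac-16, so a fusion protein was mapped and not the untagged one. There was 1 group and no second condition. Whole embryos over the first day mix all tissues and stages, so a peak says nothing of which cells carried it.

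Aminoacyl-tRNA synthetases join each amino acid to its matching tRNA, the step that fixes the genetic code in every translating cell. Flies, like other animals, make separate sets of these enzymes from nuclear genes, for translation in the cytosol and for translation inside mitochondria. Some genes without the suffix may serve both compartments, which the symbols do not show. The enzymes fall into structurally unrelated classes, called I and II. GluProRS carries a class I and a class II enzyme in 1 protein and was put with the cytosolic genes.

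The authors deposited peak lists for each replicate and for the replicates pooled, and an optimal list cut by the irreproducible discovery rate (IDR), which held 4941 peaks. Each peak has a signal value of the authors' own and a summit. A gene was counted as having a peak when a summit lay within 500 bp of any of its annotated transcript starts. Because the replicate lists are relaxed and hold 30000, 24619 and 29140 peaks in replicates 1, 2 and 3, each was also read at its 4941 strongest peaks. Read depth is not known from peak lists, and signal values are compared only within a list.

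The sequences under the summits are shown first, as 101 bases centred on the summit, read in the direction of the synthetase gene, 5′ to 3′. They are the 6 strongest synthetase peaks whose sequence is printed here, followed by 3 further peaks with a match to a promoter motif. Capitals mark matches to the motifs named further on.

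SerRS (dm6, chr2L:3037366-3037466, minus strand): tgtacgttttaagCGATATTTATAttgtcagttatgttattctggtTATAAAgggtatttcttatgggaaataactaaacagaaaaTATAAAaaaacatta
IleRS (dm6, chr3L:22288446-22288546, plus strand): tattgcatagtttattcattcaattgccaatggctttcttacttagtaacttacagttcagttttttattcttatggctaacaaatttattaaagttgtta
GluProRS (dm6, chr3R:23958584-23958684, minus strand): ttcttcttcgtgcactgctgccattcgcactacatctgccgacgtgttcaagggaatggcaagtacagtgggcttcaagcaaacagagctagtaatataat
ThrRS (dm6, chr2L:12103524-12103624, plus strand): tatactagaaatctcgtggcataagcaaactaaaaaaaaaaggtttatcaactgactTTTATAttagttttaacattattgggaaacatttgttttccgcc
AsnRS, the stronger of 2 peaks (dm6, chr2L:19132024-19132124, minus strand): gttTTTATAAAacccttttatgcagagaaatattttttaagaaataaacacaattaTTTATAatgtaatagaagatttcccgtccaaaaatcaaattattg
LeuRS-m (dm6, chr3L:4825736-4825836, plus strand): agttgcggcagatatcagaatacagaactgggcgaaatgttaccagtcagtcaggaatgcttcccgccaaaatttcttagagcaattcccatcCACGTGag
AlaRS (dm6, chr2L:8381808-8381908, minus strand): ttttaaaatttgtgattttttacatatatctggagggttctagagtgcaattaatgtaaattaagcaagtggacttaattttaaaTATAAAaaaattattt
AspRS-m (dm6, chr2L:16827015-16827115, plus strand): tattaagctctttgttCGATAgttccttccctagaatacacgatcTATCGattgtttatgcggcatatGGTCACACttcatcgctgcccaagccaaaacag
AsnRS, the weaker peak (dm6, chr2L:19132223-19132323, minus strand): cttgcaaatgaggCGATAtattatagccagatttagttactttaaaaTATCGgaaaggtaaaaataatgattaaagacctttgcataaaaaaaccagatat

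Most of these stretches are poor in G and C. Over all 19 optimal peaks at synthetase starts the median GC content of the 101 bases was 25.7%, with a range from 16.8% to 46.5%. Over all 2422 optimal summits at starts of protein-coding genes it was 33.7%. Across whole promoters, from 250 bases before to 50 after the start, the 2 medians lay closer, at 35.7% for the 33 synthetase genes and 38% for all protein-coding genes.

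A larger share of synthetase genes than of protein-coding genes at large carried a Chrac-16 peak at a start. In the optimal list 17 of 33 (51.5%) had one, against 22.5% of all protein-coding genes. In the 4941 strongest peaks of replicates 1, 2 and 3 the counts were 16, 14 and 17 of 33, or 47.5% ± 4.63 (SD, n = 3), and the shares of all protein-coding genes in the same lists were 22.0%, 21.9% and 22.4%. The share of synthetase genes was above that of all protein-coding genes in each replicate. In the pooled relaxed list 26 of 33 genes (78.8%) had a peak, against 49.7% of all protein-coding genes. In the whole relaxed lists of replicates 1, 2 and 3 the counts were 25, 23 and 26, against 52.7%, 47.0% and 52.3% of protein-coding genes. Among the optimal peaks above that list's median signal, 6 of 33 synthetase genes had one, close to the 13.4% of all protein-coding genes. They were 6 of 18 cytosolic and 0 of 15 mitochondrial genes, so the share of the family joins unlike groups. The mitochondrial share was above that of all protein-coding genes only with weaker peaks included. Another protein-coding start lay within 500 bp of a start in 66.7% of synthetase genes and 30.9% of all protein-coding genes. The part of this in the shares above was not tested. Genes are not samples of embryos, so no p-value was attached to these shares.

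The cytosolic genes had peaks more often than the mitochondrial ones in each of the 8 lists. In the optimal list the counts were 11 of 18 cytosolic genes (61.1%) and 6 of 15 mitochondrial genes (40%), a difference of 21.1 percentage points. In the strongest peaks of replicates 1, 2 and 3 there were 10, 10 and 11 cytosolic genes and 6, 4 and 6 mitochondrial ones, and the difference was 21.9 ± 6.70 points (SD, n = 3). In the whole relaxed lists the cytosolic counts were 15, 13 and 16 and the mitochondrial count was 10 in all 3, and the difference ran from 5.56 to 22.2 points. With 3 replicates an exact sign-flip test cannot go below a two-sided p of 0.25, so none was run. The difference was only 5.56 points, 7 of 18 cytosolic against 5 of 15 mitochondrial genes, when a peak was given to the gene with the nearest start alone.

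**Figure D1:**
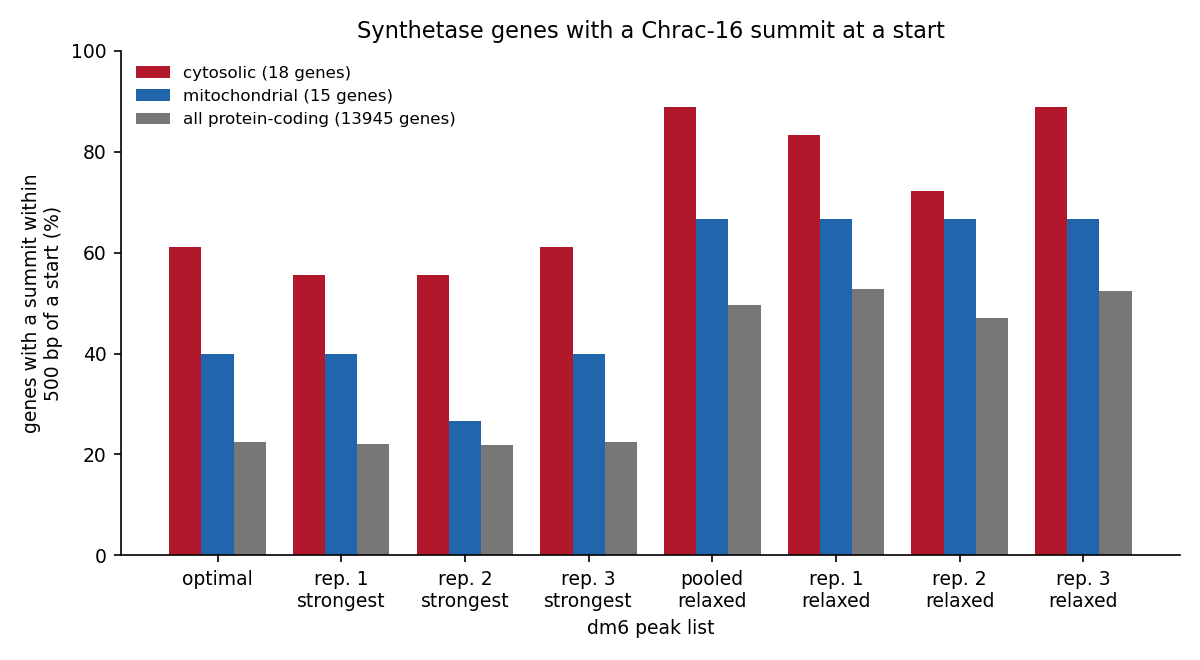
Share of genes with a summit within 500 bp of a start (vertical axis, %) in the 8 dm6 peak lists (horizontal axis), for cytosolic synthetase genes, mitochondrial synthetase genes and all protein-coding genes. The cytosolic bar is the tallest in each list, at 61.1% in the optimal list, where the mitochondrial bar is at 40% and the bar of all protein-coding genes at 22.5%.

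The signal of cytosolic peaks reached higher than that of mitochondrial peaks. Taking the strongest optimal peak of each gene, the median signal was 244 over the 11 cytosolic genes and 122 over the 6 mitochondrial ones. The same median over the 3137 protein-coding genes with a peak was 198. Of the cytosolic genes 6 of 11 lay above that value, and of the mitochondrial genes 0 of 6. Among the 6 cytosolic genes, SerRS, GluProRS and AspRS had their optimal summits nearer to a neighbour's start. With a peak given to the gene with the nearest start alone, 7 cytosolic genes kept one. Of these only IleRS, ThrRS and AsnRS lay above 198, so the higher cytosolic median rests in part on peaks near shared starts. Over all 17 synthetase genes the median was 148, 0.749 times that of all genes with a peak, below the typical gene with a peak. In the strongest peaks of replicates 1, 2 and 3 this ratio was 0.717, 0.714 and 0.844. The cytosolic median was 1.20, 1.48 and 1.11 times that of all genes in the 3 replicates, and the mitochondrial median 0.586, 0.689 and 0.674 times.

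The 6 cytosolic genes above the median of all genes were SerRS, IleRS, GluProRS, ThrRS, AsnRS and AspRS. SerRS (FBgn0031497, dm6 2L, 3035493 to 3037403, minus strand), which charges tRNA with serine, had the highest signal of the family, 533 in the optimal list and rank 299 of 4941. Its signal was 189, 166 and 177 in replicates 1, 2 and 3 (mean 177 ± 11.7, SD, n = 3). IleRS (FBgn0027086, dm6 3L, 22288665 to 22292810, plus strand), the isoleucine enzyme, followed at 528 and rank 306. The 3 replicates gave it 194, 155 and 179.8 (176 ± 19.6, SD, n = 3), which overlaps SerRS, so the order of these first 2 genes is within replicate spread.

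GluProRS (FBgn0005674, dm6 3R, 23952136 to 23958391, minus strand), the fused glutamate and proline enzyme, had 482 in the optimal list, and 154, 169 and 158 in replicates 1, 2 and 3 (160.3 ± 7.33, SD, n = 3). ThrRS (FBgn0027081, dm6 2L, 12103751 to 12107170, plus strand), the threonine enzyme, had 349, and 98.0, 128 and 133 in the replicates (119.5 ± 18.8, SD, n = 3). In each replicate ThrRS was below GluProRS. AsnRS (FBgn0086443, dm6 2L, 19129469 to 19131954, minus strand), the asparagine enzyme, had 2 optimal peaks, of 268 and 105, and its stronger replicate peaks were 81.2, 102 and 87.8. AspRS (FBgn0002069, dm6 2R, 12877004 to 12883168, plus strand), the aspartate enzyme, also had 2, of 244 and 223, which lie at an inner transcript start of the gene, and 78.6, 101 and 75.9 in the replicates. The replicate mean was 90.3 ± 10.6 for AsnRS and 85.1 ± 13.6 for AspRS (SD, n = 3 each). These neighbours in the order lie within each other's spread. The AspRS summits read were at -147, -309 and -329 bp in replicates 1, 2 and 3, so its mean and SD may mix its 2 peaks. Summits shifted between replicates at other genes too, such as GluProRS, at -238, -243 and -145 bp. A replicate mean and SD therefore need not be of 1 summit.

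The other 5 cytosolic genes lay far lower and in the range of the mitochondrial ones. MetRS (FBgn0034401, dm6 2R, 18846858 to 18850599, minus strand), which charges the tRNA that starts translation as well as the one for inner methionines, had an optimal signal of 153, and 61.0, 47.1 and 48.9 in the replicates. GlyRS (FBgn0027088, dm6 3L, 15095142 to 15097686, plus strand) had 147 in the optimal list, ValRS (FBgn0027079, dm6 2R, 13198850 to 13202709, plus strand) 138, ArgRS (FBgn0027093, dm6 X, 15841769 to 15844145, minus strand) 129 and AlaRS (FBgn0027094, dm6 2L, 8378262 to 8381764, minus strand) 115. ArgRS was not among the strongest peaks of replicate 1, where its signal was 29.8, against 46.9 and 51.2 in replicates 2 and 3. AlaRS was among them only in replicate 1, with 51.4, against 31.4 and 30.3 in replicates 2 and 3. The AlaRS summits read were at -111, -302 and -99 bp in replicates 1, 2 and 3, so these values may not be of 1 peak. The limit of the strongest 4941 was a signal of 33.9, 34.2 and 34.5 in the 3 replicates, so both genes varied from below it to well above it.

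The 6 mitochondrial peaks were all weak and close to each other. PheRS-m (FBgn0275436, dm6 2R, 13968308 to 13969902, plus strand), the mitochondrial phenylalanine enzyme, was the highest with 154 in the optimal list (rank 2860), and 43.9, 49.6 and 57.6 in replicates 1, 2 and 3 (50.4 ± 6.89, SD, n = 3). LeuRS-m (FBgn0027085, dm6 3L, 4825853 to 4829038, plus strand) had 148, and 39.2, 46.1 and 67.8 (51.0 ± 14.9, SD, n = 3). CysRS-m (FBgn0033900, dm6 2R, 14159096 to 14161262, minus strand) had 135, and 38.6, 48.2 and 40.4 in the replicates. These 3 overlap each other over the replicates. AspRS-m (FBgn0051739, dm6 2L, 16827078 to 16832093, plus strand) had 108, and 24.7, 33.1 and 48.3, so that it reached the strongest peaks in replicate 3 alone. ArgRS-m (FBgn0037526, dm6 3R, 7887045 to 7890150, plus strand) had 106, with the most even replicate values of the family, 37.5, 36.7 and 36.4. ProRS-m (FBgn0027082, dm6 3L, 2650161 to 2651850, minus strand) had 104, and 37.5, 25.2 and 43.7. In every replicate the 6 cytosolic genes of highest signal were above all 6 mitochondrial genes, while the other 5 cytosolic genes overlapped them. The 6 were picked by their signal in the optimal list, which is derived from the same 3 replicates. Their order in the replicates is therefore no separate support for a difference between the compartments.

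**Figure D2:**
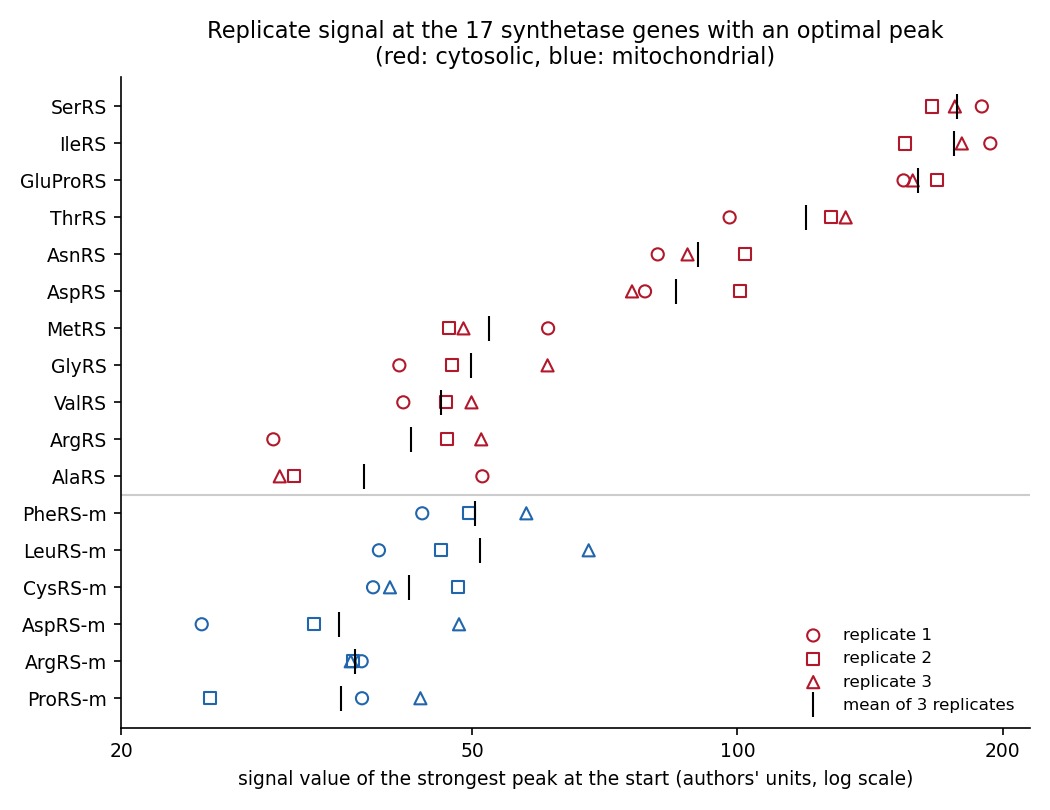
Signal value of the strongest peak at a start in each replicate (horizontal log axis, authors' units) for the 17 synthetase genes with an optimal peak (vertical axis), cytosolic genes above and mitochondrial genes below the line. Circles, squares and triangles are replicates 1, 2 and 3, and the bar is their mean. SerRS, IleRS and GluProRS stand between 154 and 194, and the mitochondrial genes between 24.7 and 67.8.

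All 17 genes had a peak in the relaxed list of each of the 3 replicates. Of the 17, 13 were also among the strongest peaks of all 3 replicates, 9 of them cytosolic and 4 mitochondrial. Optimal peaks found among the strongest in all 3 replicates were at 17.7% of all protein-coding genes, where 22.5% had any optimal peak. Most genes at large with an optimal peak thus passed as well, and the count is not particular to the family. The 4 that were not are AlaRS, ArgRS, AspRS-m and ProRS-m.

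The 16 genes without an optimal peak fell into 9 with a weaker peak in the pooled relaxed list and 7 with none there. TrpRS-m, the mitochondrial tryptophan enzyme, was nearest to the limit, with a pooled signal of 91.9 at rank 5403, where the limit is 4941 and a signal of 99.6. Just inside the limit was ProRS-m, at rank 4681. TrpRS-m varied between replicates, with 41.9, 21.7 and 22.3. LeuRS, the cytosolic leucine enzyme, had 68.3 in the pooled list, 27.4 in replicate 1, no peak in replicate 2 and 37.2 in replicate 3. SerRS-m had 65.3 in the pooled list, with its summit at -458 bp from the start. AsnRS-m (46.7), GlnRS (41.9), TyrRS (41.0), TyrRS-m (32.2), CysRS (31.7) and LysRS (31.7) had pooled peaks below the median of that list, which was 47.1.

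The 7 genes with no pooled peak were HisRS and TrpRS among the cytosolic genes and AlaRS-m, GluRS-m, IleRS-m, MetRS-m and ValRS-m among the mitochondrial ones. HisRS and AlaRS-m each had 1 weak peak, in replicate 3 alone, of 14.6 in both. TrpRS, GluRS-m, IleRS-m, MetRS-m and ValRS-m had no summit at a start in any of the 5 lists. The nearest optimal summits to their starts were 6313, 4504, 5441, 18046 and 9754 bp away. HisRS was the single synthetase gene with an optimal summit inside the gene but away from its start. The optimal summit nearest to the HisRS start, on either side of it, was 2157 bp away.

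For 12 amino acids both a cytosolic and a mitochondrial gene belong to the family. An optimal peak was at the cytosolic gene alone for Ala, Asn, Ile, Met, Ser and Val, at the mitochondrial gene alone for Cys and Leu, at both for Arg and Asp, and at neither for Trp and Tyr. Where both had one, the cytosolic signal was the higher, 129 against 106 for Arg and 244 against 108 for Asp. Over the pooled relaxed list the cytosolic gene had the higher signal, or the sole peak, in 9 of 12 pairs and the mitochondrial gene in the 3 of Cys, Leu and Trp. The clearest contrast was Ile, with 528 at IleRS and no pooled peak at IleRS-m.

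The summits lay upstream of the synthetase starts. In all 17 genes the strongest optimal summit was upstream, from -455 to -13 bp, with a median position of -120 bp. Over all protein-coding genes with an optimal peak the median was -136 bp and 90.1% were upstream. The median was -169 bp for the cytosolic genes and -74 bp for the mitochondrial ones. The gap was smaller in the strongest peaks of replicates 1, 2 and 3. There the cytosolic medians were -152.5, -165 and -145 bp and the mitochondrial ones -83, -93.5 and -103 bp. In replicates 1, 2 and 3 the median over synthetase genes among the strongest peaks was -141.5, -144 and -116 bp. SerRS and AspRS-m had the summits closest to the start, both at -13 bp, and ValRS the farthest, at -455 bp. In single replicates SerRS was downstream in replicate 2, at 18 bp, and AspRS-m in replicate 1, at 6 bp.

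Most synthetase peaks lay near the start of a neighbour on the other strand as well. In 14 of the 17 genes another protein-coding gene started within 500 bp of an optimal summit, 10 of 11 cytosolic and 4 of 6 mitochondrial. Among all 3137 protein-coding genes with an optimal peak this held for 60.3% at the strongest peak. The neighbours have varied roles, such as Hem at IleRS, which encodes a subunit of the actin-regulating WAVE complex, AP-1sigma at GluProRS, a clathrin adaptor subunit, and Dhc64C at LeuRS-m, the cytoplasmic dynein heavy chain. Plp at GlyRS encodes a centrosome protein, O-fut1 at CysRS-m an enzyme that adds fucose to Notch, and Kdm4B at ValRS a histone demethylase. A peak between 2 starts cannot be given to one of them from these lists.

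At 5 of the 14 genes the summit of the strongest optimal peak was nearer to the neighbour's start than to that of the synthetase. Negative positions are upstream of the start named. GluProRS is such a case, where the summit was at -243 bp from GluProRS and -17 bp from AP-1sigma. ValRS is another, with the summit at -455 bp from ValRS and -58 bp from Kdm4B. At AspRS the stronger summit was at -332 bp from AspRS and -154 bp from Nmda1. At CysRS-m it was at -113 bp from CysRS-m and -55 bp from O-fut1, and in replicates 1, 2 and 3 at -84, -119 and -116 bp from CysRS-m. At SerRS the summit was at -13 bp from SerRS and 5 bp inside CG17260, so the starts of both genes lie at the peak. In replicates 1, 2 and 3 it was at -3, 18 and -14 bp from SerRS, nearer to SerRS in replicates 1 and 2. AsnRS shows both cases, with its stronger summit at -120 bp from AsnRS and its weaker one at -50 bp from DCTN6-p27, a dynactin subunit gene. The 3 genes whose peak had no other start within 500 bp were AlaRS, AspRS-m and PheRS-m.

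**Figure D3:**
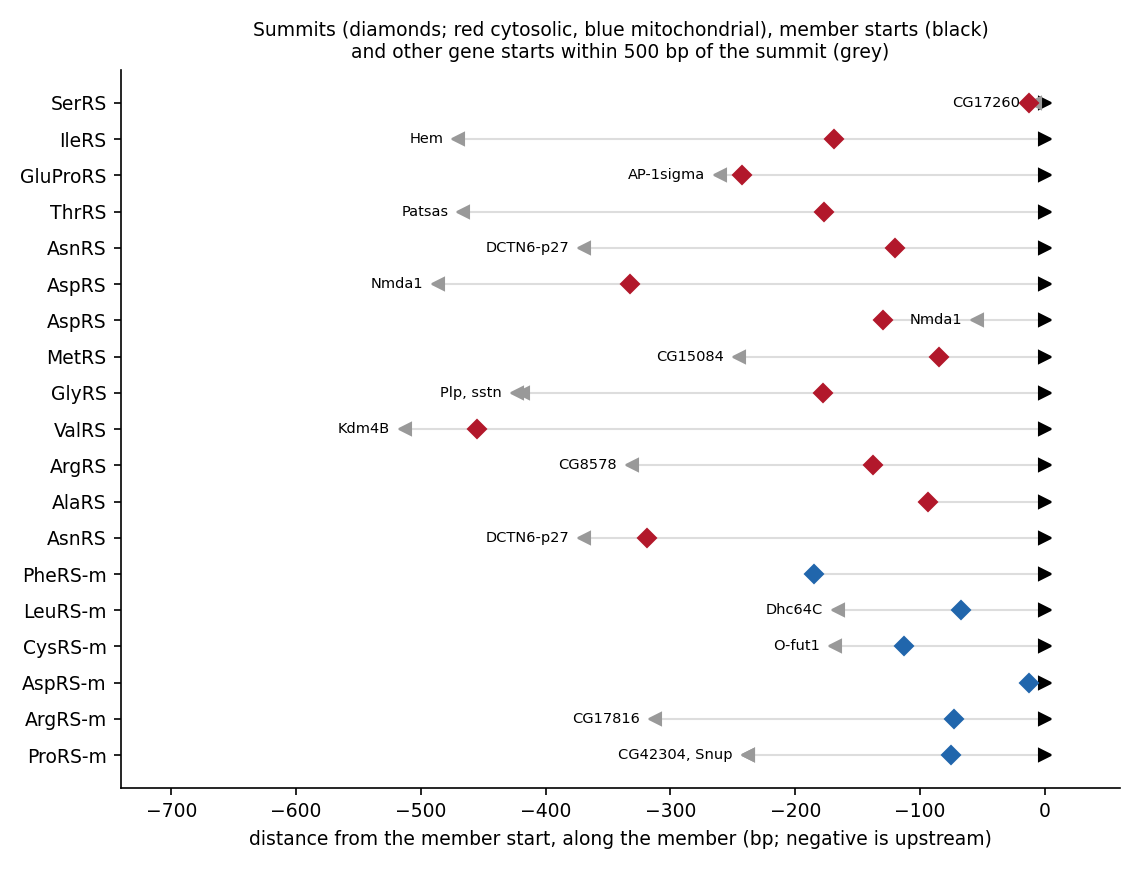
Position of the 19 optimal summits at synthetase starts (diamonds) along the direction of the synthetase gene, whose start is at 0 (black triangle), with the starts of other genes within 500 bp of the summit (grey triangles) named beside them; the horizontal axis is in bp and negative values are upstream. All 19 summits lie left of 0, from -455 to -13 bp, and 16 have a grey triangle.

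Shared starts were also more common among cytosolic than among mitochondrial genes. Another protein-coding start lay within 500 bp of a start in 22 of 33 synthetase genes (66.7%), against 30.9% of all protein-coding genes. Of the cytosolic genes 15 of 18 had such a neighbour and of the mitochondrial genes 7 of 15. Among genes with such a neighbour an optimal peak was at 9 of 15 cytosolic, 4 of 7 mitochondrial and 42.9% of all protein-coding genes. Among genes with none it was at 2 of 3 cytosolic, 2 of 8 mitochondrial and 13.4% of all protein-coding genes. The 2 cytosolic genes were AlaRS and ValRS. The ValRS summit lay at -58 bp from Kdm4B, whose start is more than 500 bp from any ValRS start. With a shared start the shares were 60% of cytosolic and 57.1% of mitochondrial genes, and without one the sets are small. Over the whole family an optimal peak was at 13 of 22 genes with such a neighbour (59.1%) and at 4 of 11 with none (36.4%). The part of shared starts in the share of the family, or in the difference between cytosolic and mitochondrial genes, was not tested.

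The number of annotated starts also bears on the count, since each start opens a window. A single start was annotated for 11 of 18 cytosolic genes, 13 of 15 mitochondrial genes and 73.5% of all protein-coding genes. With the start of the longest transcript alone, 10 cytosolic and 6 mitochondrial genes had an optimal peak, against 20.4% of all protein-coding genes.

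Promoter motifs were counted in the 300 bases around 1 start per gene, from 250 before to 50 after the start of the longest transcript, on both strands. The letters searched were TATCGATA, the DNA replication-related element (DRE), CGATA, the core that BEAF-32 reads and that also lies inside the DRE, GGTCACAC, the core of the promoter element called motif 1, GAGAG, read by GAGA factor, CACGTG, an E-box, CAGCTG, the E-box in the core of promoter motif 5, and TATAAA, the TATA box. The widest gap was at CAGCTG, which was in 16 of 33 synthetase promoters (48.5%), against 17.8% of all protein-coding promoters. It was in 9 of 18 cytosolic and 7 of 15 mitochondrial promoters. The other motifs had smaller gaps, and a match is a run of letters and not a shown binding site. TATCGATA was in 5 of 33 (15.2%) against 9.32%, CGATA in 20 of 33 (60.6%) against 47.4%, GGTCACAC in 3 of 33 against 7.72%, GAGAG in 6 of 33 (18.2%) against 29.8%, CACGTG in 2 of 33 against 4.20%, and TATAAA in 18 of 33 (54.5%) against 45.6%.

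**Figure D4:**
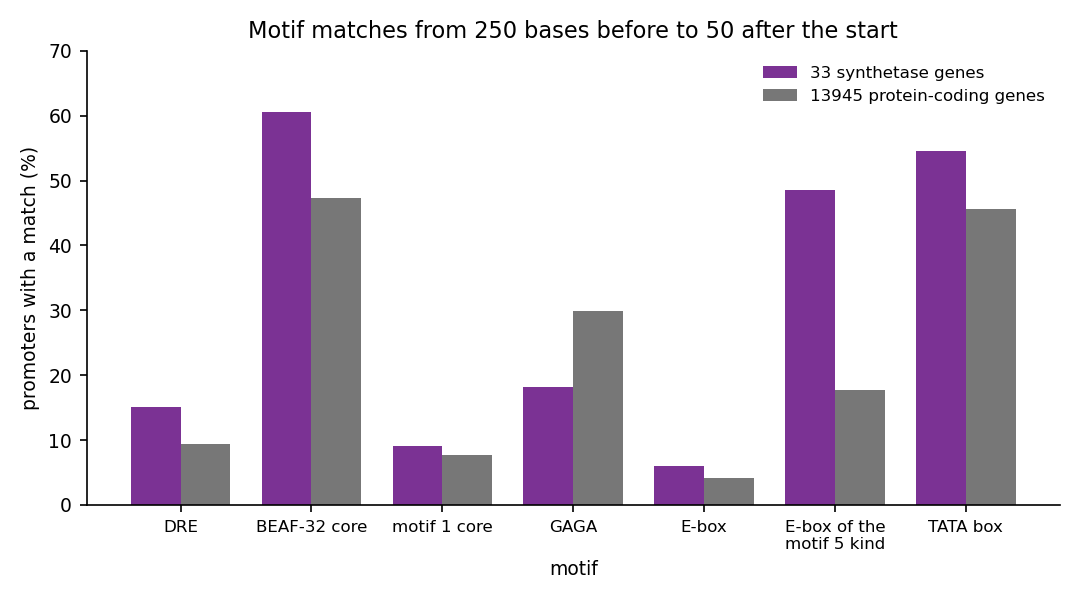
Share of promoters with a match to each of 7 motifs (vertical axis, %; horizontal axis, motif name) for the 33 synthetase genes and for all protein-coding genes. The widest gap is at the E-box of the motif 5 kind, 48.5% against 17.8%.

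CAGCTG matches were found at synthetase genes with and without peaks. They were in 7 of the 17 promoters with an optimal peak (41.2%) and in 9 of the 16 without (56.2%). Over all protein-coding genes they were in 23.5% of promoters with an optimal peak and 16.1% of those without. They lay close to the start, at a median of -30 bp over 20 matches in the family, and 13 of 33 genes (39.4%) had one no farther than 100 bases upstream, against 12.1% of all protein-coding genes. None of the 19 synthetase summits had CAGCTG within 50 bases, where 4.58% of all promoter summits had it, and in the 7 genes with both, the match centre was 79.5 to 273.5 bases from the nearest optimal summit. Within 50 bases of the summit, CGATA was at 6 of 19 synthetase summits (31.6%) and 22.8% of all promoter summits. TATAAA was at 7 of 19 (36.8%) and 22.2%. The synthetase summits were also poorer in G and C, at a median of 25.7% against 33.7%. The part of this in the TATAAA share was not tested. TATCGATA was at 0 of 19 synthetase summits and 3.67% of all promoter summits, and GAGAG at 0 of 19 and 7.89%. GGTCACAC was at 1 of 19, that of AspRS-m, and 1.82% of all promoter summits, and CACGTG at 1 of 19, that of LeuRS-m, and 0.784%.

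Matches no farther than 100 bases upstream are shown for 10 genes, as this was the motif with the widest gap, with 12 bases on each side, read along the synthetase gene, 5′ to 3′, with CAGCTG in capitals. Where a promoter has several, the most upstream of them is given. The number after each name is the position of the first base of the match relative to the start.

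ArgRS, -47 (dm6, chrX:15844175-15844204, minus strand): gcgtgacatcacCAGCTGttatcgttatcg
GluProRS, 28 (dm6, chr3R:23958346-23958375, minus strand): tgtagacgttagCAGCTGgccgtactcgtg
HisRS, 31 (dm6, chrX:18515447-18515476, plus strand): gcgcagaaaaagCAGCTGaaagctggaaaa
IleRS, -79 (dm6, chr3L:22288574-22288603, plus strand): cagtgctgtcgtCAGCTGattatcaaggat
AlaRS-m, -68 (dm6, chr3L:5146018-5146047, plus strand): taaaaaatagaaCAGCTGcagctggtgagc
ArgRS-m, 21 (dm6, chr3R:7887054-7887083, plus strand): gtgatgtcaaaaCAGCTGatgtgcagcgat
GluRS-m, 7 (dm6, chr3L:16417153-16417182, minus strand): tctagtttcgatCAGCTGtttggggtaaac
LeuRS-m, 10 (dm6, chr3L:4825851-4825880, plus strand): gatgcagagaaaCAGCTGttcgattgtaga
MetRS-m, -5 (dm6, chr3R:14259979-14260008, minus strand): gcactggtggcaCAGCTGttcaatgttata
TrpRS-m, -27 (dm6, chr3L:17849688-17849717, plus strand): tatcactgttcaCAGCTGtcgtaccggctt

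AlaRS-m holds a further copy in the bases shown. Of these 10 genes, HisRS, AlaRS-m, GluRS-m, MetRS-m and TrpRS-m had no optimal peak.

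Genes that work with the synthetases but fall outside the naming rule were read in the same way. An optimal peak was at 3 of 10 such genes, against 22.5% of all protein-coding genes, and a pooled relaxed peak at 9 of 10, against 49.7%. The optimal count is close to the share of all protein-coding genes. The 3 were GatA, a subunit of the amidotransferase that makes mitochondrial glutaminyl-tRNA, with a signal of 287, beta-PheRS, a subunit of the cytosolic phenylalanine enzyme, with 132, and Slimp, a mitochondrial relative of seryl-tRNA synthetase, with 117. The GatA summit lay at -90 bp from GatA and 16 bp inside P5cr. The other subunit of the phenylalanine enzyme, alpha-PheRS, had a pooled signal of 68.9 and no optimal peak. None of AIMP1, AIMP2 and AIMP3, the scaffold proteins that hold cytosolic synthetases in a complex, had an optimal peak, and AIMP2 had none in the pooled list either. GatB, GatC and Dtd, which removes D-amino acids from tRNA, had pooled peaks of 45.2, 74.3 and 44.5.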

How the data were processed

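Peak lists in narrowPeak form were used on the dm6 build. Per the listings deposited beside them, the replicate and pooled relaxed lists were made as input for IDR with a control alignment that is not analysed here, and the optimal list was derived from them. Neither the caller nor the aligner is named in the files or labels read here. The signal value (column 7) is the authors' own, as deposited, and its scale differs between lists. The summit is the peak start (column 2) plus the deposited offset (column 10). The optimal list was the 4941 strongest of the 24641 pooled peaks. Peak lists of another build were not used.

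Genes and starts came from Ensembl release 115 and bases from the release 6 genome. Genes on arms 2L, 2R, 3L, 3R, 4 and X were read. No peak ran past the end of an arm. Sequence from 2R is not shown. The bases of 1 further promoter match are not reported here. An overlap means 1 bp or more. All synthetase genes with an optimal peak are named, and those without are named with their weaker peaks. Calculations used Python 3.11.15, pandas 2.3.3 and numpy 2.4.6 and were tested on simulated peaks. The genes, lists, motifs and alternatives were chosen with earlier results of these data known. No test was run over genes, which are not samples. The labels call the replicates biological and do not say which embryos were pooled.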

Additional observations from a re-analysis of the deposited data

How the results depend on the processing

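The number of synthetase genes with an optimal peak, 17, was 12 to 19 under windows of 250 and 1000 bp, 1 start per gene, the nearest start alone, overlap of the peak interval, peaks among the strongest of all 3 replicates, and with the genes alpha-PheRS, beta-PheRS and Slimp added. The share of all protein-coding genes moved with the setting, between 16.2% with the nearest start alone, where the count was 12, and 25.4% with 1000 bp, where it was 17. Leaving out 1 replicate, which keeps optimal peaks that overlap a strongest peak of both others, gave 13 to 14, against 18.8% to 19.0% of all protein-coding genes. It was 26 in the pooled relaxed list, against 49.7%. With only the optimal peaks above the list's median signal it was 6 of 33, against 13.4% of all protein-coding genes, near the background for the family. By compartment it was 6 of 18 cytosolic and 0 of 15 mitochondrial genes. In that setting the median signal was 416, the median position -173 bp and the difference between cytosolic and mitochondrial shares 33.3 points. Fewer peaks by construction enter that setting. The difference, 21.1 points, was 5.56 with the nearest start alone, 16.7 to 28.9 without 1 replicate, and positive in all 12 alternatives. The median position was -138 bp with 1000 bp and -169 to -144.5 bp without 1 replicate, and the cause was not tested. The median signal without 1 replicate was 153 to 154. These signals are those of the optimal list, which still holds all 3 replicates, so only the set of peaks changed. No paired analysis was possible because there is 1 group. Depth is unknown, so it cannot be said whether weaker peaks would pass with more reads.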

Other observations

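Optimal peaks, which 22.5% of all protein-coding genes had, were also counted by enzyme class. Of the cytosolic genes 4 of 9 of class I and 6 of 8 of class II had one, and GluProRS, which holds both, had one too. Of the mitochondrial genes 3 of 9 of class I and 3 of 6 of class II had one. By chromosome arm the counts were 5 of 6 on 2L, 5 of 8 on 2R, 4 of 10 on 3L, 2 of 6 on 3R and 1 of 3 on X, where 22.7%, 20.4%, 23.8%, 24.6% and 20.4% of protein-coding genes had an optimal peak. TyrRS and GluRS-m follow one another on the same strand of 3L, from 16417349 to 16419302 and from 16415292 to 16417177 in dm6, and neither had an optimal peak.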
